A study of Zea mays with 12 samples.

Results

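The maize gene dzs18, which encodes a delta zein, was followed in embryos of 2 inbred lines and of both reciprocal hybrids between them. The platform annotation assigns 4 of the 17621 probe sets tested to dzs18, and all 4 were kept. They are named here by the ends of their identifiers, A1_at, A1_x_at, A1_a_at and S1_at. Each probe set combines several short probes into a single signal for a transcript. The embryos were collected 19 days after pollination from field-grown plants of the inbreds B73 and Mo17 and the hybrids B73xMo17 and Mo17xB73, with no treatment named. Crosses are read here as seed parent x pollen parent, the customary order, which the labels do not state. Each genotype had 3 arrays, and per the labels' protocols the arrays of a given replicate number share 1 collection date. The number of kernels or ears behind a sample is not given in the sources used here. The gene was selected on its measured signal differences between the inbreds and between the hybrids, so both are described here with no test.

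Zeins are the main storage proteins of the maize kernel and are laid down in protein bodies inside the endoplasmic reticulum. They are best known from the starchy endosperm, where the transcription factor Opaque2 and its partners switch on many of their genes. Delta zeins are the methionine-rich class and lie inside the protein body with the alpha zeins. In flowering plants the embryo receives 1 nuclear genome copy from each parent, while the triploid endosperm receives 2 copies from the seed parent and 1 from the pollen parent.

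The dzs18 signal was high in B73 and in B73xMo17, intermediate in Mo17xB73 and low in Mo17. On the brightest probe set, A1_at, the B73 arrays gave normalized signals of 11800, 12770 and 12550. The B73xMo17 arrays gave 13270, 12230 and 12720, and the Mo17xB73 arrays gave 2585, 2895 and 3463. Mo17 gave 97.54, 102.4 and 82.31. The ranges of B73 and B73xMo17 overlapped, and those of Mo17xB73 and Mo17 lay apart from each other and from the rest. The group means were 12370 ± 505 in B73, 12740 ± 517 in B73xMo17, 2981 ± 445 in Mo17xB73 and 94.08 ± 10.5 in Mo17 (normalized signal, SD, n = 3). The difference between the inbreds was 7.04 ± 0.10 on the log2 scale (SE), or 132-fold, and that between the hybrids was 2.11 ± 0.10, or 4.30-fold, higher in B73xMo17. Whether the probes fit the B73 and Mo17 alleles equally well was not tested, here or for the other probe sets.

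In B73 and in B73xMo17 the transcript was among the brightest on the array. Ranked from the top of 17621 probe sets, A1_at stood at 45, 23 and 26 in the B73 replicates and at 17, 33 and 24 in those of B73xMo17. In Mo17xB73 it stood at 1505, 1330 and 1089, and in Mo17 at 10841, 10742 and 11176, near percentile 36.6 to 39.0 of the array. The log2 levels of 13.59 in B73 and 13.64 in B73xMo17 lay close to 14.00, the highest normalized value, and whether signals there are compressed was not tested. The Mo17 values of this probe set lay above 27.6, the 25th percentile of normalized signals, which is used below as a floor for dim values.

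On the other 3 probe sets the Mo17xB73 mean again lay between that of Mo17 and those of B73 and B73xMo17. B73xMo17 had the higher mean of the last pair on A1_x_at and B73 on A1_a_at and S1_at. On A1_x_at, some of whose probes may match other transcripts as the suffix x marks, signals ran from 10580 to 11570 in B73, from 10670 to 11430 in B73xMo17 and from 2225 to 2899 in Mo17xB73. Mo17 gave 1.391, 26.49 and 28.23 there, so 1 array was far below its partners and the spread of its log2 level was 3.34 ± 2.48 (SD, n = 3). The inbred difference was 10.09 ± 0.80 on the log2 scale (SE), 8.65 without Mo17 replicate 1, a move of over 1.5 times in fold, and 8.63 with the floor.

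A1_a_at, whose suffix a marks probes shared by transcripts of 1 gene, read 13200, 13840 and 12630 in B73 and 12990, 12400 and 12340 in B73xMo17. It read 2140, 2541 and 2967 in Mo17xB73 and 12.25, 21.08 and 16.70 in Mo17, where all arrays fell below the floor. B73 and B73xMo17 overlapped again. The inbred difference was 9.67 ± 0.16 (log2, SE), or 8.90 with the floor, and the hybrid difference was 2.31 ± 0.16, or 4.97-fold.

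The dimmest probe set departed from the other 3 in several respects. Its identifier carries S1 where theirs carry A1, and whether it reads the same strand of the transcript was not tested. S1_at read 216.0, 279.3 and 261.4 in B73, 183.4, 205.9 and 143.2 in B73xMo17, 65.84, 61.67 and 57.30 in Mo17xB73, and 58.72, 22.94 and 48.42 in Mo17. Here all B73xMo17 arrays lay below all B73 arrays, while the ranges of Mo17xB73 and Mo17 overlapped. As deposited, before normalization between arrays, B73xMo17 read 168.1, 282.1 and 127.6 against 255.7 to 268.0 in B73, and those ranges overlapped. The inbred difference was 2.64 ± 0.29 (log2, SE) and the hybrid difference 1.51 ± 0.29, or 2.85-fold. In B73 this probe set stood between percentiles 49.2 and 53.6 of the array, away from the bright end.

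**Figure D1:**
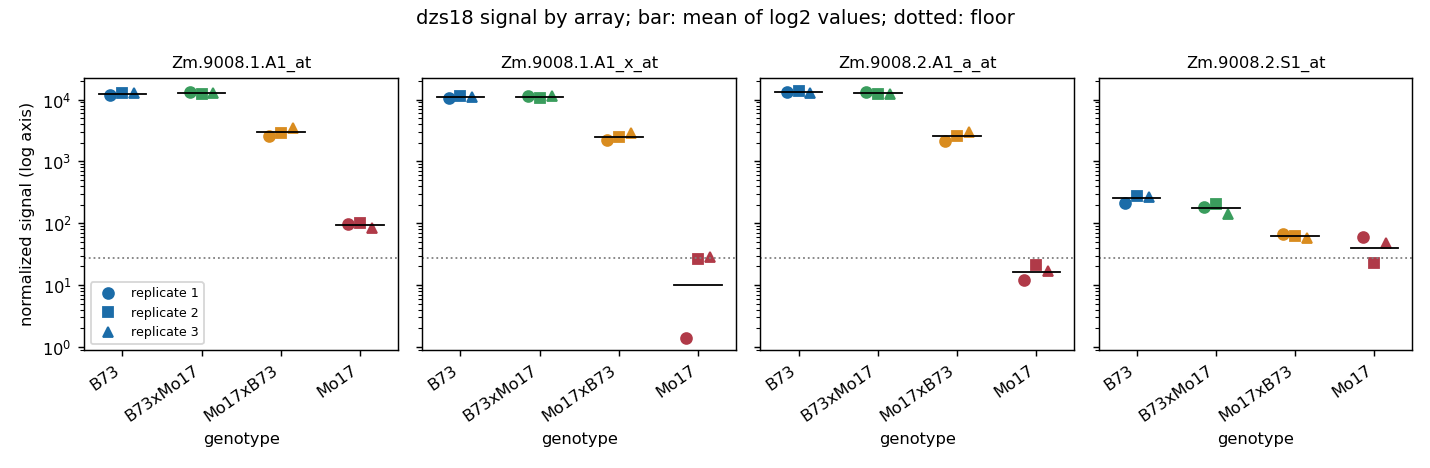
Normalized signal of the 4 dzs18 probe sets on 12 arrays, on a log axis, by genotype; symbols are replicates, bars are means of the log2 values and the dotted line is the floor of 27.6. On 3 probe sets B73 and B73xMo17 overlap near the top of the scale, Mo17xB73 lies between 2140 and 3463, and Mo17 is at or below 102.4.

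The hybrids differed in the same direction on each date and on each probe set. Taking arrays of the same date together, B73xMo17 over Mo17xB73 was 5.13, 4.23 and 3.67 on A1_at (ratio of normalized signals, replicates 1, 2 and 3). The ratios were 5.14, 4.32 and 3.92 on A1_x_at, 6.07, 4.88 and 4.16 on A1_a_at and 2.79, 3.34 and 2.50 on S1_at. With the signals as deposited, those of A1_at were 5.80, 5.37 and 3.16. Mo17xB73 reached 0.219, 0.227 and 0.276 of the B73 signal of its date on A1_at, and B73xMo17 reached 1.12, 0.958 and 1.01 of it. The 4 probe sets share a gene and the same 12 RNA samples, so they are not 4 independent measurements.

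The hybrid levels were also placed between the inbreds on the linear scale. There 0% is the mean of Mo17, 100% the mean of B73 and 50% the mid-parent. The mid-parent is the level for equal dose, with each parental copy giving as much as a copy does in its own inbred. B73xMo17 lay at 103% ± 4.21, 101% ± 3.84 and 95.1% ± 2.73 on the 3 bright probe sets and at 64.2% ± 15.2 on S1_at (SD, n = 3). Mo17xB73 lay at 23.5% ± 3.63, 22.8% ± 3.10, 19.2% ± 3.13 and 8.74% ± 2.04 in the same order. With the signals as deposited the places of B73xMo17 were 101% ± 18.9, 99.1% ± 19.1, 95.1% ± 20.4 and 68.2% ± 35.8. Those of Mo17xB73 were 21.6% ± 6.12, 21.0% ± 5.48, 18.1% ± 5.22 and 10.0% ± 1.23. Without Mo17 replicate 2, the Mo17xB73 place on S1_at was 4.04%, and leaving out 1 array moved it at the most to 12%.

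**Figure D2:**
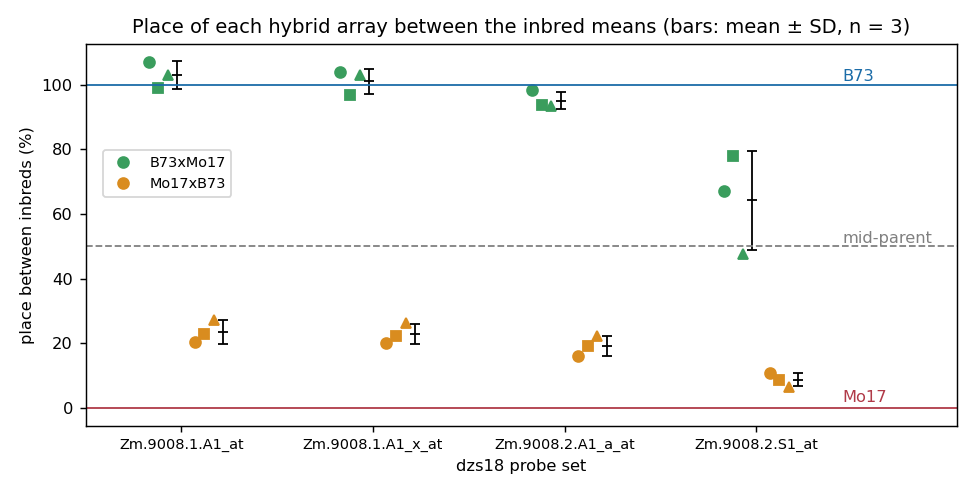
Place of each hybrid array between the inbred means (percent, 0 for Mo17 and 100 for B73) on the 4 dzs18 probe sets, with mean ± SD over 3 arrays beside the points. B73xMo17 lies near 100% on 3 probe sets and at 64.2% on the fourth, and Mo17xB73 lies between 8.74% and 23.5%.

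Against other transcripts that were far higher in B73, the gap between the hybrids was wide. The set consisted of 240 other probe sets at least 8-fold higher in B73 than in Mo17, with a B73 mean over 4 times the floor, limits set for this description. In it the median place was 53.1% for B73xMo17 (quartiles 47.1% and 59.9%) and 49.3% for Mo17xB73 (41.6% and 57.7%). The gap between the hybrids had a median of 4.36 percentage points and ran from -32.4 to 63.5. The dzs18 gaps were 79.5, 78.4 and 75.9 points on the bright probe sets, beyond each of the 240. The gap of 55.5 points on S1_at, which was less than 8-fold apart between the inbreds and so outside that set, was reached by 2 of them. Among 133 probe sets at least 8-fold higher in Mo17, the gap toward the seed parent had a median of 3.90 points. Over all 17621 probe sets, the dzs18 probe sets ranked 35, 2, 5 and 406 by the inbred difference toward B73 and 45, 38, 24 and 188 by the hybrid difference toward B73xMo17. The dzs18 gaps and these ranks use the differences for which the gene was chosen and are a description.

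**Figure D3:**
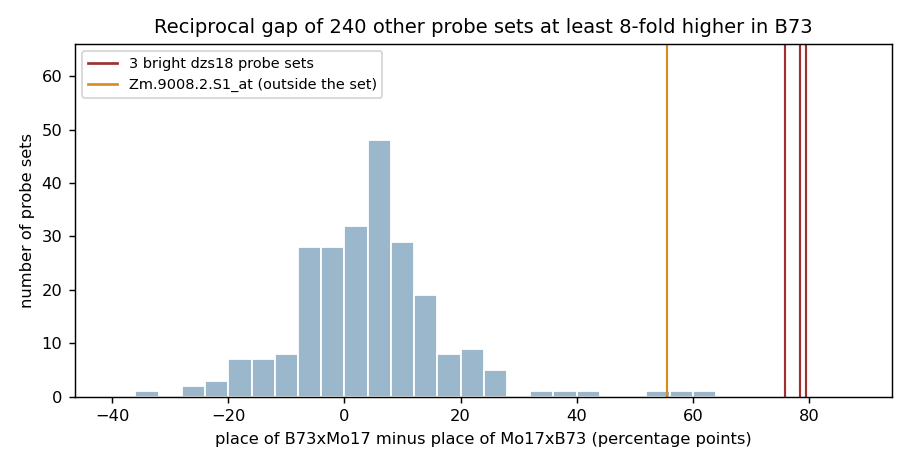
Number of probe sets by the gap between the hybrids (place of B73xMo17 minus place of Mo17xB73, percentage points) for 240 other probe sets at least 8-fold higher in B73. Vertical lines mark dzs18: 3 bright probe sets between 75.9 and 79.5, and S1_at at 55.5. The dzs18 gaps use the differences for which the gene was chosen.

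The title of the series concerns additive expression in the hybrids, that is, levels at the mean of the inbreds. For dzs18, the mean of both hybrids was compared with the mid-parent, a contrast other than those used to choose the gene. It draws on the same group levels, so its p-values are not free of that choice. On A1_at the hybrid mean was 7846 and the mid-parent 6230 (arithmetic means of group signals), a log2 difference of 0.33 ± 0.09 (SE) that did not pass limma's threshold (adjusted p = 0.16, unadjusted p = 0.003). The values were 0.31 ± 0.73 (limma adjusted p = 0.91) on A1_x_at, 0.19 ± 0.14 (0.65) on A1_a_at and -0.30 ± 0.24 (0.68) on S1_at. The SE on A1_x_at pools the spread of all groups, including the wide one of Mo17. With the floor its value was again 0.31, with a limma adjusted p of 0.13. None of the 4 probe sets was called, where 0.471% of all probe sets were (83 of 17621, or 138 when replicate number was a block). The answer depended on the scale of the mid-parent. Against a mid-parent taken on the log2 scale, the midpoint of the inbreds' log2 levels, 3 of the 4 were called, at 2.87 (limma adjusted p = 6.5e-11) on A1_at, 4.35 (0.00052) on A1_x_at and 4.02 (1.6e-10) on A1_a_at, with 0.24 (0.68) on S1_at. For inbreds this far apart that midpoint lies well below the arithmetic mid-parent, so hybrids at the arithmetic mid-parent would also lie above it. These calls therefore do not tell whether the levels were additive. With the hybrids averaged on the log2 scale against the arithmetic mid-parent, the value on A1_at became -0.02 (0.95). The mean of the hybrids was made of unlike parts: each B73xMo17 array was above the mid-parent on the bright probe sets and each Mo17xB73 array below it.

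Collection date was a comparison that the choice of the gene did not use. A1_at deviated by -0.04, 0.02 and 0.01 on the log2 scale on the 3 dates, after genotype, and limma's F test for date gave F = 0.24 (adjusted p = 0.94). None of the 4 probe sets was called for date, with adjusted p between 0.61 and 0.94, where 0.0397% of all probe sets were (7 of 17621). With the signals as deposited A1_x_at was called (F = 19.5, adjusted p = 1.7e-05); its Mo17 replicate 1 value there was 1.306, against 21.20 and 30.21.

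No other zein gene on the array was called in the direction of dzs18 in both comparisons. Over all probe sets only 0.363% were called higher in B73xMo17, so 0 of 7 there lies near the share over all. Of 7 other zein genes, each by its brightest probe set, 2 were higher in B73 than in Mo17 and 0 lower, where 35.9% of all probe sets were called (16.4% higher in B73). The annotation assigns 0 probe sets to the delta zein gene dzs10, so no other delta zein was among the 7. The median difference of the 7 was 0.26 on the log2 scale, against -0.056 over all probe sets. The 2 higher were the alpha zein genes z1C2 (1.22 ± 0.24, limma adjusted p = 0.001) and z1C1_20 (0.31 ± 0.07, adjusted p = 0.0037). The call of z1C1_20 was lost with the signals as deposited (adjusted p = 0.52) and with median centring (0.20). The gamma zein gene gz27 stood at -0.11 ± 0.11 (0.51), the gamma zein gene gz50 at 0.39 ± 0.16 (0.078, but 0.037 under the replicate block, 0.033 without Mo17 replicate 2 and 0.042 without Mo17xB73 replicate 1), z1C1_12 at 0.26 ± 0.19 (0.33), z1C1_4 at 0.02 ± 0.04 (0.79) and z1D_2 at 0.13 ± 0.08 (0.27). The probe sets of z1C1_20, z1C1_4 and z1D_2 lay between 12.84 and 13.70 on the log2 scale in all groups, close to the highest normalized value of 14.00, and near-identical alpha zein copies can share probes.

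Between the hybrids 1 of the 7 zein genes was called, in the direction opposite to dzs18, where 0.868% of all probe sets were called (153 of 17621, with 0.363% higher in B73xMo17 and 0.505% higher in Mo17xB73). That gene, z1C1_12, had log2 levels of 9.79 ± 0.35 in B73xMo17 and 11.48 ± 0.15 in Mo17xB73 (SD over 3 arrays). The hybrids differed by -1.69 ± 0.19 (SE, with a limma adjusted p of 0.0014). Its inbred levels were 10.53 ± 0.40 in B73 and 10.26 ± 0.18 in Mo17. The other 6 lay between -0.28 (z1D_2) and 0.08 (gz27), with a median of -0.09 over the 7 and 0.009 over all probe sets. Their adjusted p ran from 0.19 for z1D_2 to 0.99 for z1C1_4. Against the mid-parent 0 of the 7 passed limma's threshold, where 0.471% of all probe sets did, with values from 0.07 to 0.47. An unadjusted p under 0.05 was reached by 4 of the 7 and by 2068 of all 17621 probe sets. z1D_2, at 0.27 ± 0.06 (adjusted p = 0.069), was called under the replicate block (0.039), with dim probe sets left out (0.047), and without Mo17 replicate 2 (0.03) or Mo17xB73 replicate 3 (0.043).

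Among 6 zein regulators, 2 were called toward B73 and 0 toward Mo17, where 16.4% and 19.5% of all probe sets were. The median difference of the 6 was 0.20, against -0.056 over all probe sets. o2, the bZIP factor Opaque2, had log2 levels of 8.86 ± 0.26 in B73, 8.79 ± 0.32 in B73xMo17, 7.91 ± 0.46 in Mo17xB73 and 6.04 ± 0.29 in Mo17 (SD over 3 arrays). The inbred difference of o2 was 2.82 ± 0.23 (SE; limma adjusted p = 4.1e-07). ohp1, an Opaque2 heterodimerizing protein, differed by 1.89 ± 0.11 (adjusted p = 7.4e-09) and its relative ohp2 by 0.21 ± 0.09 (0.079, but 0.045 under the replicate block and 0.03 without Mo17 replicate 1). The DOF factor gene PBF, which encodes the prolamin-box binding factor, stood at 0.15 ± 0.20 (0.64), Nkd1 at 0.11 ± 0.07 (0.25) and Floury1, a protein body membrane protein gene, at 0.20 ± 0.19 (0.47, but 0.45 and called at 0.034 without Mo17 replicate 2).

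Between the hybrids 0 of the 6 regulators passed limma's threshold, where 0.868% of all probe sets did. An unadjusted p under 0.05 was reached by 2 of the 6 and by 2023 of all 17621 probe sets. o2 stood at 0.88 ± 0.23 (SE; adjusted p = 0.13), higher in B73xMo17, and was called without Mo17xB73 replicate 1 (1.14, adjusted p = 0.039). PBF stood at 0.51 ± 0.20 (0.35), ohp1 at 0.08 ± 0.11 (0.84), ohp2 at -0.15 ± 0.09 (0.55), and Nkd1 and Floury1 at 0.01 ± 0.07 and 0.02 ± 0.19 (both 0.98). The place of o2 was 95.0% in B73xMo17 and 45.2% in Mo17xB73. A second, dimmer o2 probe set gave 0.74 ± 0.39 between the hybrids (adjusted p = 0.51). Against the mid-parent 0 of the 6 were called, where 0.471% of all probe sets were. An unadjusted p under 0.05 was reached by 0 of the 6 and by 2068 of all 17621 probe sets.

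**Figure D4:**
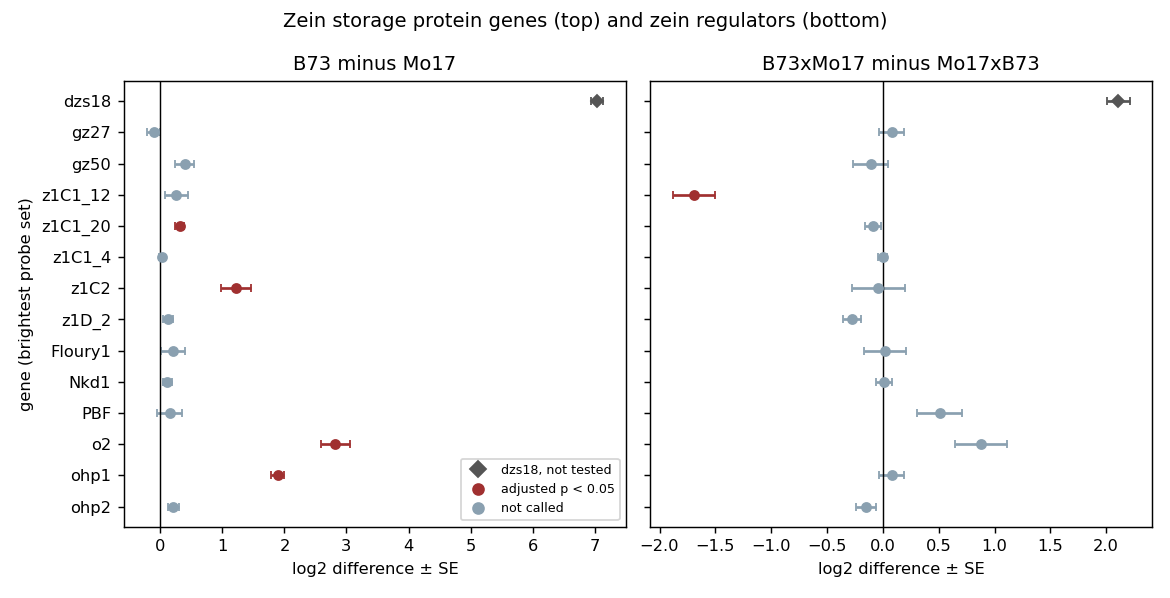
Log2 difference ± SE for B73 minus Mo17 and for B73xMo17 minus Mo17xB73, by the brightest probe set of each zein gene and zein regulator; the diamond is dzs18, which was not tested. dzs18 lies at 7.04 and 2.11, o2 at 2.82 and 0.88, and z1C1_12 at 0.26 and -1.69.

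Genes that supply or fold methionine-rich protein gave a mixed picture. Of 13 genes of sulfur amino acid and aspartate metabolism, 5 were called toward B73 and 3 toward Mo17, where 16.4% and 19.5% of all probe sets were. Their median difference was 0.26, against -0.056 over all probe sets, and 3 and 2 were called with the signals as deposited. HMT-2 and hmt4, homocysteine methyltransferase genes that form methionine, differed by 3.69 ± 0.10 (limma adjusted p = 7e-12) and 2.24 ± 0.29 (2.9e-05). The serine acetyltransferase gene sat1 was called at -2.71 ± 0.59 (0.0024), from signals at or below the floor, with which its difference was 0. Between the hybrids hmt1 (-0.93 ± 0.13, adjusted p = 0.0046) and apr (-0.87 ± 0.15, adjusted p = 0.015) were lower in B73xMo17, and 0 of the 13 were called higher, where 0.505% and 0.363% of all probe sets were. HMT-2, at 0.43 ± 0.10 (0.073), was called higher with median centring (0.039) and without Mo17 replicate 1 (0.034). The calls of hmt1 and apr were lost with the signals as deposited (0.38 and 0.56) and without the eBayes trend (0.062 and 0.10). That of apr was also lost with the floor and without B73xMo17 replicate 2 or 3 or Mo17xB73 replicate 2 or 3 (0.064 to 0.088). Of 15 chaperones of the endoplasmic reticulum, 1 was called toward B73 and 8 toward Mo17, where 16.4% and 19.5% of all probe sets were. With the signals as deposited 0 and 2 were called. The protein disulfide isomerase genes pdi5 (-1.92 ± 0.15, adjusted p = 2.6e-07), pdi8 (-0.94 ± 0.26, 0.012) and pdi10 (-0.62 ± 0.09, 5.6e-05) had the widest of these differences. The call of pdi8 was lost without B73 replicate 1 (0.052) or 2 (0.055), and those of pdi10 (0.15), bip1, crt2, pdi, pdi4, pdi11 and pdi12 (0.23 to 0.77) with the signals as deposited. None of the 15 passed limma's threshold between the hybrids, where 0.868% of all probe sets did. Of the 15, 3 had an unadjusted p under 0.05, where 2023 of all 17621 probe sets did. Against the mid-parent 0 of the 13 and 0 of the 15 were called, where 0.471% of all probe sets were. At an unadjusted p under 0.05 there were 7 and 1, beside 2068 of all 17621 probe sets.

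Since dzs18 is best known from endosperm, endosperm and embryo markers were followed beside it. Of 14 transfer layer and related endosperm genes, 0 were called toward B73 and 9 toward Mo17, and between the hybrids 0 were higher in B73xMo17 and 3 in Mo17xB73, the opposite direction to dzs18 in both comparisons. Of all probe sets 19.5% were called toward Mo17 and 0.505% toward Mo17xB73. The medians of the 14 were -1.30 and -0.63, against -0.056 and 0.009 over all probe sets. The 3 called between the hybrids were bap1-b (-1.33 ± 0.19, limma adjusted p = 0.0046), bap-1a (-1.25 ± 0.18, 0.0061) and meg2 (2.01-fold, 0.036). These calls were lost without the eBayes trend (adjusted p of 0.062, 0.068 and 0.16), those of bap-1a and meg2 with the floor (0.055 and 0.14), and that of meg2 with the signals as deposited (0.089), without B73 replicate 2 (0.052) and without any 1 of the 6 hybrid arrays (0.057 to 0.14). Between the inbreds bap2 (-1.92 ± 0.27, limma adjusted p = 6.7e-05) and bap1-b (-1.84 ± 0.19, 3e-06) had the widest called differences apart from the dim bap-3a, whose call was lost with the floor (0.34). Against the mid-parent 1 of the 14, betl3, was called above it and 0 below, where 0.471% of all probe sets were called. It stood at 0.83 ± 0.13 (limma adjusted p = 0.014), a call lost with the signals as deposited (0.36), with the floor (0.053) and without the eBayes trend (0.11). The median of the 14 was 0.63, against -0.043 over all probe sets. An unadjusted p under 0.05 was reached there by 10 of the 14 and by 2068 of all 17621 probe sets. Calls above it were gained by betl1c (0.03) and meg2 (0.027) without Mo17 replicate 2, betl4 (0.029) without B73xMo17 replicate 2 and bap-3b (0.018) with the floor. The summed signal of the 14 genes ran from 6539 to 7283 in B73, from 12174 to 16240 in Mo17, from 9027 to 12004 in B73xMo17 and from 14923 to 18871 in Mo17xB73.

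Of 11 genes listed as starchy endosperm markers, 1 was called toward B73 and 2 toward Mo17, where 16.4% and 19.5% of all probe sets were. The list was matched by gene name, and the cell type of each gene was not tested. Between the hybrids 0 of the 11 were called, where 0.868% of all probe sets were. An unadjusted p under 0.05 was reached there by 1 of the 11 and by 2023 of all 17621 probe sets. The gene higher in B73 was ss1, a starch synthase gene (1.11 ± 0.14, limma adjusted p = 2.4e-05), and mn1, a cell wall invertase gene, was higher in Mo17 (-2.08 ± 0.34, 0.00028). The other call was a second gene annotated as ae1, at or below the floor, with which its difference was 0. The direction of mn1 was that of the called transfer layer genes, and whether mn1 marks starchy endosperm was not tested. The transporter gene bt1, at -0.67 ± 0.32 (0.14), was called toward Mo17 under the replicate block (0.0079) and without Mo17 replicate 1 (0.028), and the waxy gene wx1, at 0.49 ± 0.24 (0.14), toward B73 without Mo17 replicate 2 (0.002). For collection date bt2, an ADP-glucose pyrophosphorylase subunit gene, was called (limma adjusted p = 0.016). These 3 genes were named after their values were seen. The summed signal of the 11 genes ran from 18379 to 25671 in B73, from 16473 to 28107 in Mo17, from 22604 to 26518 in B73xMo17 and from 20517 to 25449 in Mo17xB73, so the 4 ranges overlapped. The mean signal of 3 of these 11 genes was below the floor in every group, namely du1, rip2 and that ae1 gene. Of 10 embryo markers 5 were called toward B73 and 1 toward Mo17, where 16.4% and 19.5% of all probe sets were, and their sum ran from 38865 to 42483 in B73, from 36868 to 44557 in Mo17, from 42809 to 44985 in B73xMo17 and from 44724 to 50182 in Mo17xB73. None of the 10 was below the floor in any group, so the embryo markers were present. The widest inbred differences among them were 2.26 ± 0.29 for emb5 (limma adjusted p = 3.2e-05), 1.40 ± 0.31 for mlg3 (0.0027) and -1.27 ± 0.12 for the globulin gene glb2 (2e-06). Against the mid-parent 1 of the 10, glb2, was called above it and 0 below, where 0.471% of all probe sets were called. Its value was 0.71 ± 0.09 (limma adjusted p = 0.0048), a call lost with the signals as deposited (0.77) and without the eBayes trend (0.076). An unadjusted p under 0.05 was reached there by 2 of the 10 and by 2068 of all 17621 probe sets. Between the hybrids the embryo globulin gene glb3 was the 1 embryo marker called of 10, where 0.868% of all probe sets were called. It was higher in B73xMo17 (0.77 ± 0.14, limma adjusted p = 0.026). That call was lost with the signals as deposited (0.12), with the floor (0.11) and without the eBayes trend (0.15). It was also lost without any 1 hybrid array other than Mo17xB73 replicate 1 (0.067 to 0.13). The share of endosperm RNA in the embryo samples, and its part in the dzs18 levels, was not tested, and fewer cells of a type and less RNA per cell cannot be told apart in such samples.

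The genes whose pattern over the 12 arrays was most like that of A1_at were sought among 413 named probe sets of other genes, of which each had group means at least 1 log2 unit apart. By Pearson's r of log2 signals they were HMT-2 (0.984), pdc2, a pyruvate decarboxylase gene (0.982), plt2 (0.977), gss1 (0.972), and o2 (0.969). Among all 4938 such probe sets of any name, the nearest were HMT-2 and a pair with no gene name here (0.984 and 0.983), and 240 had an r above 0.95. The other dzs18 probe sets gave 0.966, 0.997 and 0.844. The 12 arrays fall into 4 groups, so r mostly reflects the 4 group levels, and it is given with no test. pdc2 and o2 came nearest to dzs18 in the gap between the hybrids: their places were 94.9% and 95.0% in B73xMo17 and 38.7% and 45.2% in Mo17xB73. HMT-2 lay at 71.5% and 50.7%, gss1 at 51.0% and 35.3%, and plt2 at 91.0% and 49.4%. The Mo17 signals of pdc2 (28.06, 25.78 and 24.61) and gss1 (6.976, 10.31 and 7.494) lay near or below the floor of 27.6. For o2 the normalized signals were 376.6, 509.7 and 523.4 in B73, 451.4, 351.5 and 546.4 in B73xMo17, 345.9, 193.8 and 207.2 in Mo17xB73, and 58.46, 82.94 and 58.38 in Mo17. The ranges of B73 and B73xMo17 overlapped for o2, as they did for dzs18.

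**Figure D5:**
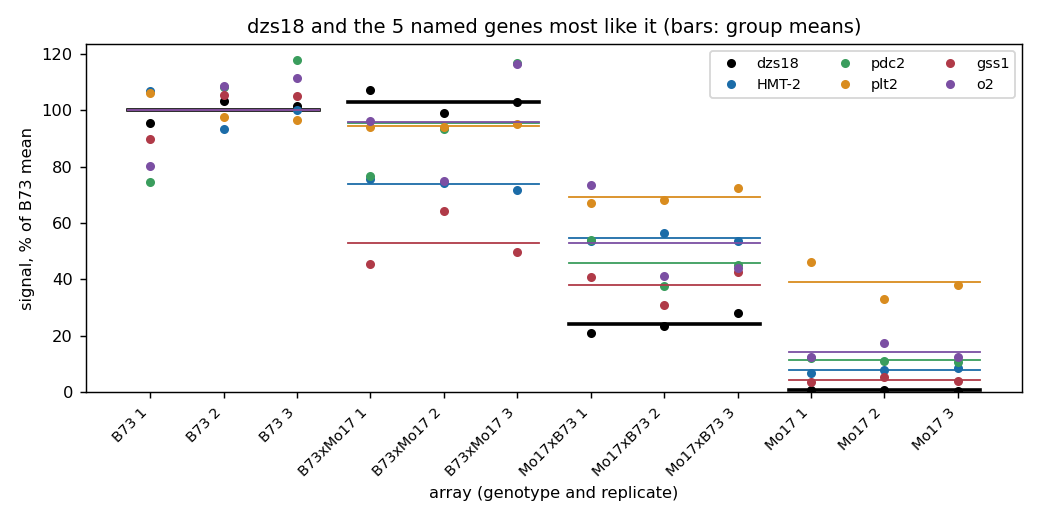
Signal as a percentage of the B73 mean on each of 12 arrays (linear axis from 0) for dzs18 by A1_at and the 5 named genes most like it; bars are group means. In Mo17xB73 dzs18 lies below the others, while in B73xMo17 it lies near the B73 mean with o2, pdc2 and plt2.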

How the data were processed

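The deposited values are linear intensity values of probe sets on one-colour Affymetrix maize arrays; MAS5 is the tool given, per the submitters' processing notes. Whether the authors scaled arrays to each other is not given in the sources used here; array medians of the deposited intensity ran from 192.1 to 313.8. After 113 control probe sets were left out, log2 values of 17621 probe sets were quantile normalized, with no filter on dim ones. Detection calls were not used here. Limma 3.58.1 in R 4.3.3 fitted the 4 group means over 12 arrays (eBayes with trend, 8 residual degrees of freedom), with Benjamini-Hochberg adjustment over all probe sets and a threshold of 0.05; steps were tested on simulated data. The mid-parent and the hybrid mean are arithmetic means of linear group means, with delta-method errors. Replicate numbers mark a shared collection date per the labels' protocols, though deviations of same-numbered arrays correlated by -0.053 to 0.057.

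Gene names come from the platform annotation, with 1452 probe sets of 1 gene, of whose 1108 genes 1060 matched RefSeq by gene ID (Zm-B73-REFERENCE-NAM-5.0, names only). Lists were matched by name and synonym, each gene is given by its brightest probe set, and 4 misnamed matches were removed. Named are the dzs18 probe sets, all zeins and zein regulators, from other lists up to 3 called genes with the largest difference in a comparison, and the 5 named genes most like dzs18. The members and lists were chosen with earlier results of these data known. The number of arrays limits the precision.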

Additional observations from a re-analysis of the deposited data

Results flagged for a closer look

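On the 3 bright dzs18 probe sets the hybrids departed from the mid-parent in opposite directions on every array. B73xMo17 lay above it by 1.03 ± 0.06 on A1_at, 1.02 ± 0.06 on A1_x_at and 0.93 ± 0.04 on A1_a_at (log2, SD, n = 3). Mo17xB73 stood at -1.07 ± 0.21, -1.13 ± 0.19 and -1.39 ± 0.24 in the same order. The difference was not tested, since the gene was chosen for it. On S1_at, Mo17xB73 lay below the mid-parent on all arrays, at -1.24 ± 0.10, while B73xMo17 gave 0.33, 0.50 and -0.02.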

How the results depend on the processing

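For A1_at of dzs18, leaving out any 1 array gave 6.95 to 7.11 between the inbreds, 2.01 to 2.22 between the hybrids, places of 101% to 105% and 21.5% to 25.1%, and 0.30 to 0.36 against the mid-parent (adjusted p from 0.12 to 0.32). Under the replicate block the mid-parent value stayed at 0.33 and no dzs18 call changed. That value depends on the scale. A log2 mid-parent, which lies well below the arithmetic one for inbreds this far apart, gave 2.87 (limma adjusted p = 6.5e-11). A log2 mean of the hybrids, chosen after seeing the data, gave -0.02, with -0.06 on A1_x_at and -0.23 on A1_a_at. S1_at gave 0.24 with the log2 mid-parent. The counts over all probe sets moved more. Inbred, hybrid, mid-parent and date calls numbered 2963, 42, 5 and 29 with the signals as deposited. Median centring gave 155 mid-parent and 19 date calls, the floor 76 hybrid calls, and the replicate block 138 mid-parent calls. Without the eBayes trend there were 39 hybrid, 13 mid-parent and 0 date calls, and the log2 mid-parent gave 880. With 1 array left out, calls ran from 5383 to 6344, 51 to 144, 39 to 117 and 0 to 13 for inbreds, hybrids, mid-parent and date. Higher and lower calls split 1813 and 1150 between inbreds as deposited, against 2889 and 3432, and 30 and 125 (median centring) or 31 and 83 (floor) against the mid-parent, where they had split 48 and 35. The hybrids' median over all probe sets was 0.12 as deposited. Among uncalled zein and regulator values, z1C1_4 between inbreds became -0.01 as deposited and -0.12 with median centring, and z1C2 between hybrids 0.08 as deposited. With 1 array left out, gz27 ran from -0.22 to 0.02 between inbreds. Between hybrids z1C1_4 ran from -0.02 to 0.01, z1C2 from -0.33 to 0.17, gz50 from -0.22 to 0.05, Floury1 from -0.08 to 0.10 and Nkd1 from -0.05 to 0.07. The dim sat1 and second ae1 differences became 0 with the floor. By Spearman's rho 1 of the 5 most alike genes remained among the first 5. The causes were not tested. Dim Mo17 signals limit the inbred fold on A1_x_at and A1_a_at.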
